A study of Homo sapiens and Mus musculus with 18 samples.

Results

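Basal-like signature genes are transcripts by which the basal-like class of pancreatic tumours is told from the classical class. The 8 described here are S100A2, FGFBP1, TNS4, FAM83A, SCEL, CTSV, DHRS9 and ANXA8, taken by name out of 34505 human gene rows. KRT17 and the other keratins of the signature were left out, because KRT17 is the gene the study altered. All 8 had a row in the deposited human counts. The label held in part. Between L3.6 wild type and PANC-1 with the empty vector, 6 were called higher in L3.6, beside 28.3% of 17583 genes. CTSV and DHRS9 were called lower in L3.6, beside 31.5% of those genes. L3.6 also expressed the squamous regulator TP63 and, at a lower level, KRT5. Other squamous markers were near absent there: KRT6A had 0 counts, and KRT14 and PKP1 had at most 4 in any L3.6 library.

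Basal-like pancreatic tumours resemble stratified epithelium, express keratins and other genes of the basal epidermis, and carry a worse prognosis than classical tumours, which keep features of glandular epithelium. Keratin 17 (K17) is an intermediate filament protein of stratified epithelium that marks the basal-like class. The 8 genes do different work. FGFBP1 is a secreted carrier that releases fibroblast growth factors from the extracellular matrix. S100A2 and ANXA8 bind calcium, the former as an S100 protein of basal keratinocytes and the latter as an annexin on membrane phospholipids. TNS4 is a tensin of focal adhesions, and FAM83A is a docking protein tied to signalling from the epidermal growth factor receptor. SCEL (sciellin) is a precursor of the cornified envelope. CTSV is a lysosomal cysteine protease close to cathepsin L, and DHRS9 is a short-chain dehydrogenase that acts on retinol and steroids.

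Total RNA was sequenced from 12 libraries of 2 human pancreatic cancer lines grown in the same serum-containing medium, 3 libraries in each of 4 groups. L3.6, labelled as adenosquamous carcinoma, was either wild type or carried a CRISPR-Cas9 knockout of K17. PANC-1, labelled as ductal adenocarcinoma, carried an empty vector or over-expressed K17. The labels give neither clones nor vectors by name, and leave unsaid whether the libraries of a group are separate cultures, so a p-value covers the spread between these libraries alone, which may be technical. The mouse libraries of the series were not used. The comparisons ask how the signature differs with K17 within a line, and fold changes are K17-high minus K17-low throughout (wild type minus knockout in L3.6, K17 minus empty vector in PANC-1).

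The promoters below are shown because they belong to S100A2 and FGFBP1, both called lower in the L3.6 wild type, to CTSV and DHRS9, which had higher values with K17 in PANC-1 without passing the test with all 6 libraries, and to SCEL, the cornified envelope gene. RefSeq promoters of GRCh38.p14 were used for 5 of the 8 members, at 9 transcription starts. Each line holds the 100 bases before a start and the 20 from it, 5′ to 3′ on the gene's strand. Capitals mark a match to TGANTCA, the AP-1 motif, which reads the same on both strands. For S100A2 and DHRS9, which have several starts, the start printed is the only one whose promoter held a match.
S100A2, start 1 of 2, chr1:153565825-153565944, minus strand: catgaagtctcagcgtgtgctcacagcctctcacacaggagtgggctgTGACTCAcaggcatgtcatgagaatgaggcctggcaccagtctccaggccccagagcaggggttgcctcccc
FGFBP1, chr4:15938721-15938840, minus strand: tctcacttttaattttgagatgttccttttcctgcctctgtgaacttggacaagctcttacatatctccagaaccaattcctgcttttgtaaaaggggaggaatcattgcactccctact
SCEL, chr13:77535606-77535725, plus strand: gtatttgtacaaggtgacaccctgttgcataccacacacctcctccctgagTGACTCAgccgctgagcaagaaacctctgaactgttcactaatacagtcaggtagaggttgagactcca
DHRS9, start 2 of 4, chr2:169069463-169069582, plus strand: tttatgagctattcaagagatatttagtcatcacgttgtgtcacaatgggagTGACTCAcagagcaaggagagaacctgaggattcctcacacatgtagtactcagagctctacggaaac
CTSV, chr9:97039123-97039242, minus strand: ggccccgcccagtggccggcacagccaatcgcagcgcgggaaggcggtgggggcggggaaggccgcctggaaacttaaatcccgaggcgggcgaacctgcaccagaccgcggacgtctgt

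The 3 matches all read TGACTCA and began 52 bases before the start in S100A2, 49 in SCEL and 48 in DHRS9. Over whole promoters of 300 bases, 3 of the 9 starts held TGANTCA, against 7.71% of 35116 RefSeq promoters, and 0.809% of those promoters had a match beginning 40 to 60 bases before the start. The motif and the window of 40 to 60 bases were both set after the sequences were seen. The 7.71% and 0.809% are therefore no test of these matches or their positions. In addition, several starts belong to the same gene. FAM83A was left out of the promoter search, and TNS4 and ANXA8 had no promoter entry. The counts over 9 starts therefore do not cover these members. The TEAD motif GGAATG, searched on both strands, was in 0 of the 9 starts and in 14.0% of all promoters. CTSV had 71.3% GC and 30 CpG dinucleotides in its promoter, S100A2 61.0% and 5 at this start, FGFBP1 42.0% and 3, SCEL 38.3% and 1, and DHRS9 31.3% to 39.3% over its 4 starts, beside medians of 58.7% and 14 CpG over all promoters. These 5 members thus did not share a promoter composition. A match of letters describes the sequence only.

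Libraries held 9485257 to 70789559 counts, with every PANC-1 library deeper than any L3.6 library. KRT17 followed the labels, with 175 to 204 counts in the L3.6 knockout against 1112 to 1654 in the wild type, and 2, 0 and 0 counts in PANC-1 with the empty vector against 8597 to 9884 with K17. PANC-1 empty vector replicate 2 stood apart: mitochondrially encoded genes made up 18.8% of it, where the remaining PANC-1 libraries had 9.88% to 10.8%, and on the first principal component it scored 135.1, where they scored -31.6 to -22.0. L3.6 wild-type replicate 1 lay between its own group and the knockout on the first component (7.44, against 40.1 and 41.3 in the other wild-type libraries). Results that rest on either library are given with and without it. Levels are CPM (counts scaled to library size), computed over the 12 libraries together with TMM factors, and levels per kilobase divide by the summed exon length of the gene in GENCODE 29.

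**Figure D1:**
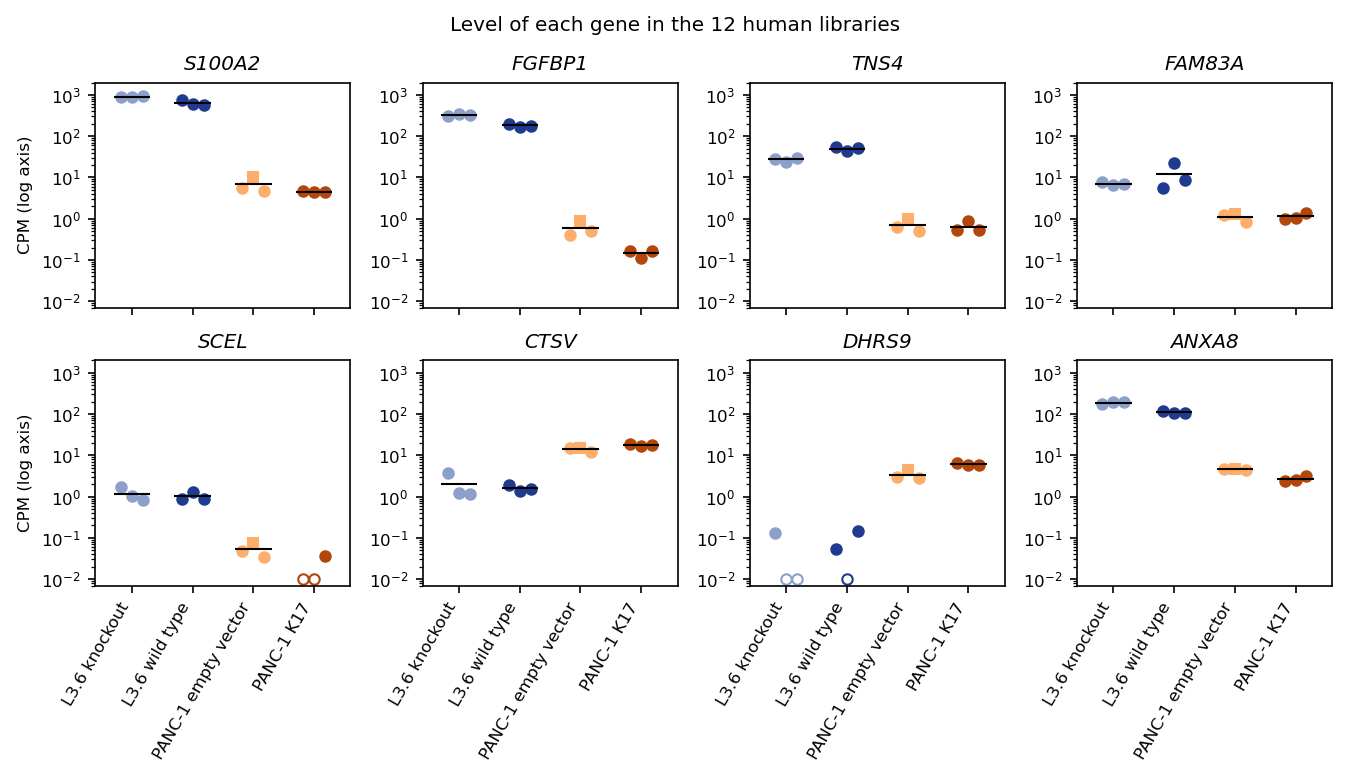
Level of each of the 8 genes in CPM on a log axis (y) in the 4 groups (x), 1 point per library and a black line at the group mean where no library was at 0. Squares are PANC-1 empty vector replicate 2, and open circles at the bottom are libraries with 0 counts. S100A2, FGFBP1, TNS4 and ANXA8 separate the L3.6 groups without overlap, and CTSV and DHRS9 stand higher in PANC-1 than in L3.6.

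In bulk RNA, fewer cells expressing a gene and less RNA per cell cannot be told apart. In L3.6, 3 of the 7 members tested were lower in the K17 wild type than in the knockout (FGFBP1, ANXA8 and S100A2, by 1.77-fold, 1.64-fold and 1.37-fold), and TNS4 was 1.87-fold higher. FAM83A, SCEL and CTSV did not pass the test, and DHRS9 was too low to test. Across all genes, 3.51% of 13891 were called higher and 6.10% lower by edgeR's quasi-likelihood test (Benjamini-Hochberg adjusted p under 0.05), so 9.61% were called in either direction. The median log2 change was -0.30 over the members tested and 0.01 over all genes tested. With upper-quartile factors the calls over all genes were 639 higher and 706 lower in place of 488 and 847, and the same number of members, 4, was called.

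FGFBP1, the growth factor carrier, lies on chromosome 4 (15935569 to 15938740, minus strand, GRCh38). It was at 310, 347 and 331 CPM in the knockout libraries and at 197, 169 and 180 CPM in the wild type, or 329 ± 18.3 against 182 ± 13.8 (SD, n = 3 each). Every wild-type library was below every knockout library. The log2 change was -0.83 (SE 0.0653, edgeR adjusted p = 0.00025). In 1 fit of the 4 human groups, which share a spread, the adjusted p was 0.0673.

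S100A2, the calcium-binding protein, is on chromosome 1 (153561108 to 153567890, minus strand) and was the most abundant member per kilobase in both L3.6 groups. Its level was 868, 912 and 931 CPM in the knockout and 743, 619 and 575 CPM in the wild type, or 904 ± 31.9 against 646 ± 87.0 (SD, n = 3 each). The groups did not overlap, and wild-type replicate 1 was the wild-type library nearest to the knockout. The log2 change was -0.46 (SE 0.0859, edgeR adjusted p = 0.015). This call was the least firm of the 4: it was lost without knockout replicate 2, knockout replicate 3 or wild-type replicate 2 (edgeR adjusted p = 0.0597, 0.0696 and 0.0705) and in 1 fit of the 4 groups (0.371), and without wild-type replicate 1 the change was -0.58 (edgeR adjusted p = 0.000792).

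ANXA8, the annexin, is on chromosome 10 (47460162 to 47484158, minus strand). It stood at 171, 192 and 196 CPM in the knockout, and at 122, 106 and 107 CPM in the wild type. All wild-type libraries were lower, by 0.71 on the log2 scale in the fit (log2 change -0.71, SE 0.0719, edgeR adjusted p = 0.000883). The reads of this gene are hard to assign, since 62.8% of the 75-base windows of its transcripts occur in 4 other genes and 42.5% in its near copy ANXA8L1. How the counting treated such reads is not given in the sources used here. ANXA8L1 had 482, 610 and 518 counts in the knockout and 343, 220 and 190 in the wild type, and its own log2 change was -0.98 (SE 0.149, edgeR adjusted p = 0.00562). With the counts of both genes added, an alternative chosen after seeing the data, the change was -0.75 (edgeR adjusted p = 0.000669), so the direction did not depend on the split between the copies.

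TNS4, the focal adhesion tensin on chromosome 17 (40475828 to 40501597, minus strand), was the single member called higher in the wild type. It measured 28.7, 24.3 and 29.4 CPM in the knockout against 54.3, 44.2 and 52.1 CPM in the wild type, or 27.5 ± 2.77 against 50.2 ± 5.31 (SD, n = 3 each). No knockout library reached the lowest wild-type library. The log2 change was 0.90 (SE 0.110, edgeR adjusted p = 0.00205), with an adjusted p of 0.115 in 1 fit of the 4 groups. TNS4 thus differed in the opposite direction to the other 3 members called.

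The remaining members were low or variable in L3.6. FAM83A, the docking protein on chromosome 8 (123178960 to 123210079, plus strand), was at 7.56, 6.40 and 6.82 CPM in the knockout and at 5.51, 21.8 and 8.82 CPM in the wild type. The high wild-type value came from replicate 2 alone, and the groups overlapped. Its log2 change was 0.80 (SE 0.468, edgeR adjusted p = 0.308), 0.07 without wild-type replicate 2 and 1.15 without wild-type replicate 1 (edgeR adjusted p = 0.0754). SCEL, on chromosome 13 (77535674 to 77645263, plus strand), had 25, 16 and 12 counts in the knockout and 16, 14 and 12 in the wild type, with a log2 change of -0.19 (SE 0.409, edgeR adjusted p = 0.790). CTSV, on chromosome 9 (97029679 to 97039643, minus strand), was at 3.75, 1.20 and 1.16 CPM in the knockout and at 1.93, 1.40 and 1.52 CPM in the wild type, and knockout replicate 1 was its highest library (log2 change -0.30, SE 0.498, edgeR adjusted p = 0.726). DHRS9, on chromosome 2 (169064789 to 169096167, plus strand), had 2, 0 and 0 counts in the knockout and 1, 0 and 2 in the wild type. A count of 0 allows up to 3 counts, or 0.165 to 0.280 CPM in these libraries, so a difference in DHRS9 was not detectable at this depth.

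The non-overlap of the 4 members called can be set beside all genes tested. Every wild-type library was below every knockout library for 3 members and for 19.5% of all genes, and above for 1 member and 13.7% of all genes. Without wild-type replicate 1, 17.2% of 14463 genes were called (6.61% higher and 10.6% lower), and the members called were again FGFBP1, ANXA8, S100A2 and TNS4. The summed level of all 8 members was 1457 ± 56.7 CPM in the knockout and 1004 ± 106 CPM in the wild type (SD, n = 3 each), of which S100A2 alone made up 61.5% to 66.1%. The sum therefore mostly followed S100A2.

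**Figure D2:**
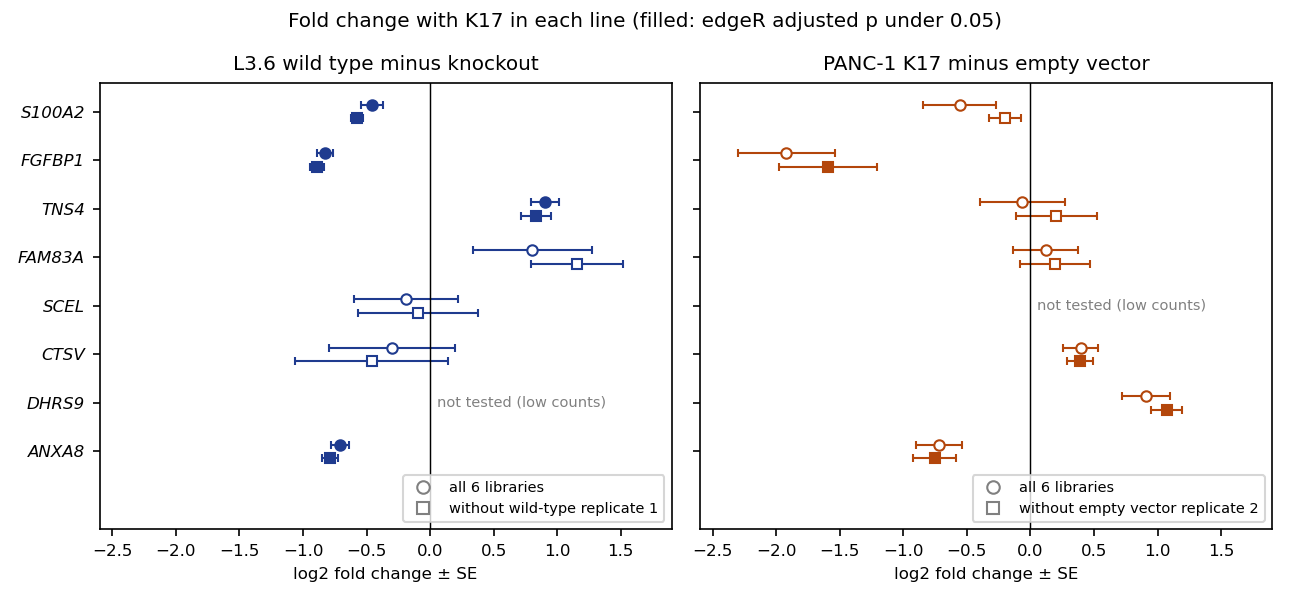
Log2 change with its SE (x) of each gene (y) in L3.6 (wild type minus knockout) and PANC-1 (K17 minus empty vector), from all 6 libraries of the line (circles) and without the library that stood apart (squares). Filled symbols have an edgeR adjusted p under 0.05: 4 members in L3.6 under both settings, and in PANC-1 0 with all libraries and 4 without empty vector replicate 2.

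In PANC-1, 0 of the 7 members tested passed the edgeR test with all 6 libraries, where 0.644% of 16295 genes did (0.583% higher and 0.0614% lower). At an unadjusted p under 0.05 there were 4 members: FGFBP1 and ANXA8, with lower values with K17, and DHRS9 and CTSV, with higher values. Without empty vector replicate 2, the library that stood apart, 20.7% of 16640 genes were called (11.4% higher and 9.25% lower), and these 4 members were among them. DESeq2 on all 6 libraries called 3 members (FGFBP1, DHRS9 and ANXA8). SCEL was too low to test.

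FGFBP1 had 24, 48 and 29 counts with the empty vector and 9, 6 and 9 with K17, or 0.595 ± 0.255 against 0.147 ± 0.0292 CPM (SD, n = 3 each). All K17 libraries were below all empty vector libraries, and empty vector replicate 2 was the highest. The log2 change was -1.92 (SE 0.383, edgeR adjusted p = 0.121), and -1.59 without empty vector replicate 2 (edgeR adjusted p = 0.028). DESeq2 gave an adjusted p of 0.013 with all libraries. The K17 libraries thus rest on fewer than 10 counts each.

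ANXA8 was at 4.74, 4.77 and 4.51 CPM with the empty vector and at 2.38, 2.55 and 3.24 CPM with K17. The groups did not overlap, and the empty vector libraries, replicate 2 included, lay close together. Its log2 change was -0.72 (SE 0.181, edgeR adjusted p = 0.207), and -0.75 without empty vector replicate 2 (edgeR adjusted p = 0.0214). ANXA8L1 had at most 7 counts in any PANC-1 library. Adding both copies gave -0.69 (edgeR adjusted p = 0.209).

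S100A2 was at 5.62, 10.5 and 4.74 CPM with the empty vector and at 4.65, 4.32 and 4.46 CPM with K17. The groups did not overlap, but the lowest empty vector library (4.74) lay just above the highest K17 library (4.65), and replicate 2 raised the empty vector mean. The log2 change was -0.56 (SE 0.288, edgeR adjusted p = 0.601) with that library and -0.20 (SE 0.125, edgeR adjusted p = 0.340) without it. TNS4 was at 0.621, 1.01 and 0.511 CPM with the empty vector and at 0.530, 0.868 and 0.544 CPM with K17, and FAM83A at 1.23, 1.30 and 0.811 against 0.988, 1.06 and 1.41 CPM. Both genes overlapped between the groups, with log2 changes of -0.06 (SE 0.333) and 0.12 (SE 0.254) and edgeR adjusted p values of 0.952 and 0.879.

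The 2 enzymes had higher values with K17 in PANC-1. DHRS9, the retinol and steroid dehydrogenase, had 178, 236 and 164 counts with the empty vector and 355, 306 and 324 with K17, or 3.38 ± 0.826 against 6.05 ± 0.389 CPM (SD, n = 3 each). No empty vector library reached the K17 libraries. Its log2 change was 0.91 (SE 0.188, edgeR adjusted p = 0.131), and 1.07 (SE 0.124, edgeR adjusted p = 0.0013) without empty vector replicate 2, which was the highest of its group. CTSV, the lysosomal protease, was at 14.9, 14.7 and 12.2 CPM with the empty vector and at 18.4, 16.9 and 17.5 CPM with K17. The groups did not overlap, and the log2 change was 0.40 (SE 0.138, edgeR adjusted p = 0.409), or 0.39 without empty vector replicate 2 (edgeR adjusted p = 0.035). The related protease CTSL had a log2 change of 0.13 (SE 0.113, edgeR adjusted p = 0.724).

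SCEL had 3, 4 and 2 counts with the empty vector and 0, 0 and 2 with K17, a 4.25-fold ratio of empty vector to K17 whose 95% counting interval (0.880 to 40.4) includes no difference. Every K17 library was below every empty vector library for 3 of the 8 members (S100A2, FGFBP1 and ANXA8) and for 13.1% of all genes tested, and above for 2 (CTSV and DHRS9) and 12.2% of all genes. The summed level of the 8 members was 31.4 ± 5.79 CPM with the empty vector and 32.8 ± 1.07 CPM with K17 (SD, n = 3 each), and the ranges of the sum overlapped. By library the sum was 30.4, 37.6 and 26.2 CPM with the empty vector and 33.6, 31.6 and 33.2 CPM with K17. The overlap thus came from empty vector replicate 2 (37.6 CPM) alone. S100A2 made up 18.5%, 28.0% and 18.1% of the sum with the empty vector and 13.4% to 13.8% with K17.

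The difference between the K17 effects of the lines was tested directly, as the L3.6 minus the PANC-1 log2 change in 1 fit of all 12 libraries. It was called for 0 of the 8 members and for 1.54% of 17583 genes (0.284% higher and 1.25% lower). DESeq2 also called 0, and 2 members had an unadjusted p under 0.05 in edgeR. These were FGFBP1, more negative in PANC-1, with a difference of 1.13 (SE 0.362, edgeR adjusted p = 0.189), and TNS4, with 1.01 (SE 0.362, edgeR adjusted p = 0.237). Without PANC-1 empty vector replicate 2 the differences were 0.67 and 0.63, and neither had an unadjusted p under 0.05. ANXA8 differed by 0.04 (SE 0.181) and S100A2 by 0.15 (SE 0.339), with edgeR adjusted p values of 0.953 and 0.880, and both changed sign under other settings. FAM83A gave 0.74 (SE 0.601, edgeR adjusted p = 0.609) and CTSV -0.65 (SE 0.523, edgeR adjusted p = 0.603). DHRS9 and SCEL had too few counts in L3.6 and PANC-1, respectively, for a usable difference. TNS4 was thus called in L3.6 and not in PANC-1 without the lines being shown to differ.

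Between the lines the members differed far more than within them. All 8 were called between L3.6 wild type and PANC-1 empty vector in the fit of the 12 libraries, where 59.8% of 17583 genes were called (28.3% higher and 31.5% lower). The 6 members higher in L3.6 were FGFBP1, with a log2 difference of 8.26 (SE 0.279), S100A2 with 6.53 (SE 0.302), TNS4 with 6.13 (SE 0.301), ANXA8 with 4.58 (SE 0.148), SCEL with 4.18 (SE 0.599) and FAM83A with 3.42 (SE 0.456). CTSV was lower in L3.6 by a log2 difference of -3.09 (SE 0.390) and DHRS9 by -5.52 (SE 0.621). The largest edgeR adjusted p of the 8 was 0.000114, and the groups of each member did not overlap, beside 29.7% of all genes with every L3.6 library higher and 31.3% with every one lower. Counts gave a ratio for DHRS9 of 47.7 in favour of PANC-1, with a 95% counting interval of 16.2 to 232, and for SCEL of 18.8 in favour of L3.6, with an interval of 9.04 to 44.0. Upper-quartile factors moved the median of all genes from -0.01 to 0.30, which is small beside these differences.

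**Figure D3:**
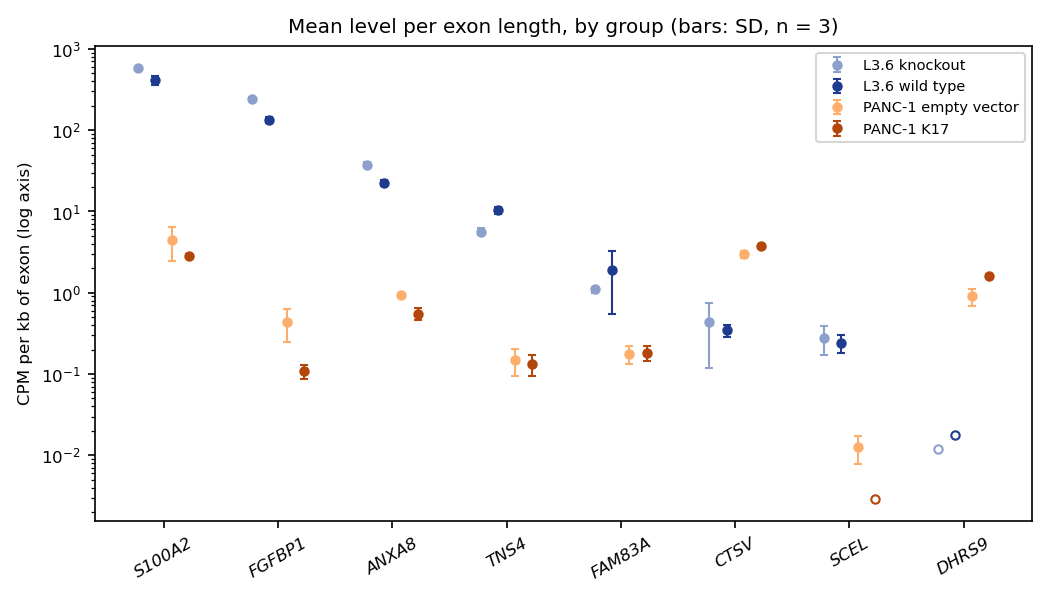
Mean level per exon length, in CPM per kb on a log axis (y), of each gene (x, ordered by its level in the L3.6 knockout) in the 4 groups, with bars for the SD of 3 libraries. Open circles are groups in which a library had 0 counts, drawn without a bar. S100A2 leads in the L3.6 groups at 577 and 412 CPM per kb, and the order of the genes differs in PANC-1.

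Per kilobase, the L3.6 knockout was led by S100A2 at 577 ± 20.3 CPM per kb, FGFBP1 at 242 ± 13.5, ANXA8 at 37.6 ± 2.68 and TNS4 at 5.67 ± 0.571 (SD, n = 3). FAM83A followed at 1.10 ± 0.0931 CPM per kb, and CTSV at 0.433 ± 0.315 and SCEL at 0.278 ± 0.107 could not be ordered within their spread. DHRS9 came last. The wild type kept this order by mean level, with S100A2 at 412 ± 55.5, FGFBP1 at 134 ± 10.2, ANXA8 at 22.5 ± 1.83 and TNS4 at 10.4 ± 1.10 CPM per kb. In PANC-1 with the empty vector, S100A2 at 4.45 ± 1.99 and CTSV at 2.96 ± 0.322 CPM per kb were within their spread of each other, as were ANXA8 at 0.943 ± 0.0284 and DHRS9 at 0.901 ± 0.220. With K17, CTSV at 3.74 ± 0.160 CPM per kb stood above S100A2 at 2.86 ± 0.104, and DHRS9 at 1.61 ± 0.104 stood above ANXA8 at 0.550 ± 0.0927. FGFBP1, FAM83A and TNS4 lay at 0.108 to 0.438 CPM per kb in the PANC-1 groups, and SCEL lay lowest in both.

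Some rows may not cover all reads of their gene, which limits levels between genes and lines. Rows chosen with earlier results known show this: PANC-1 libraries all had 0 counts for TUBB, EEF2 had 32 to 53 counts in L3.6 and 10960 to 27520 in PANC-1, and CANX, at 16969 to 21772 in 5 PANC-1 libraries, had 67 in empty vector replicate 2. Whether the member rows are affected was not tested. FAM83A and SCEL also overlap antisense transcripts over 6.16% and 3.42% of their exon bases, and the strand setting of the counting is not given in the sources used here. S100A2, FGFBP1, TNS4, CTSV and DHRS9 shared 0 of their 75-base windows with another gene.

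Of 13 further non-keratin genes of the signature, 10 had a row and 3 reached a level that could be tested in L3.6. ANXA8L1 fell as given above. The glucose transporter gene SLC2A1 was abundant in both groups, at 1356 ± 60.9 and 1409 ± 76.4 CPM (SD, n = 3 each), with a log2 change of 0.08 (SE 0.0554, edgeR adjusted p = 0.366). In PANC-1, 2 of the 10 were tested and 0 called. SLC2A1 was at 28.0, 43.9 and 26.2 CPM with the empty vector and at 56.4, 55.05 and 54.04 CPM with K17, a log2 change of 0.83 (SE 0.189, edgeR adjusted p = 0.173), and 1.04 (SE 0.0485, edgeR adjusted p = 2.96e-05) without empty vector replicate 2. VGLL1, SPRR3, SERPINB3 and SERPINB4 had 0 counts in all 12 libraries.

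Markers of squamous and other cells were read beside the signature. TP63, the regulator of squamous identity, was at 339 ± 11.4 CPM in the L3.6 knockout and at 239 ± 8.14 CPM in the wild type (SD, n = 3 each), and fell with the same sign as FGFBP1, ANXA8 and S100A2 (log2 change -0.48, SE 0.0496, edgeR adjusted p = 0.000945). KRT5 was at 12.8 ± 1.28 and 9.29 ± 0.837 CPM. KRT6A had 0 counts in all L3.6 libraries, and PKP1 and KRT14 had at most 4. The summed level of the 5 squamous markers with a row was 342 to 365 CPM in the knockout, 241 to 257 CPM in the wild type and at most 0.453 CPM in any PANC-1 library. The 7 epithelial markers summed to 3290 to 3644 CPM in the knockout and 2795 to 3143 CPM in the wild type, and KRT19 was the epithelial marker called (-0.30, edgeR adjusted p = 0.0212).

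Among markers of other cells, VIM (-0.62), PDPN (-0.84) and PECAM1 (1.40) were called in L3.6 and COL3A1 (-2.84) in PANC-1, with edgeR adjusted p values of 0.00174, 0.00225, 0.00468 and 0.0152. Fibroblast markers summed to at most 68.4 CPM, endothelial markers to at most 11.0 CPM and immune markers to at most 63.8 CPM in any library, and CD3E had 0 counts in all. In PANC-1 empty vector libraries the epithelial sum ranged from 1090 to 2221 CPM and the mesenchymal sum from 5852 to 10422 CPM, against 1169 to 1227 and 5861 to 6124 CPM with K17. Both upper ends with the empty vector came from replicate 2. VIM was at 10341 CPM there against 6119 and 5643 CPM in replicates 1 and 3, and KRT8 at 1296 against 655 and 660 CPM. Without this library KRT8 and CLDN4 were called higher with K17 in PANC-1, and ZEB1 and COL3A1 lower. That fit called 20.7% of 16640 genes. The part of these markers in the results for the members was not tested.

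For the 4 members called in L3.6, the genes with the most similar pattern were listed over 12 libraries, by Pearson's r of log2 CPM centred within each line, among 7762 genes with a mean of at least 5 CPM in both lines. The points share depth and the library that stood apart. S100A2 was most like P3H1 (r = 0.991) and TMEM11 (0.989), and FGFBP1 most like LGALS8 (0.964) and ARRB1 (0.953). ANXA8 was most like MBD1 (0.957) and GRAMD4 (0.954), and TNS4 most like ADPRHL1 (0.910) and METTL2A (0.904). Without PANC-1 empty vector replicate 2 these r values were 0.888 to 0.972. No gene appeared for more than 1 member.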

How the data were processed

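Gene-level whole-number counts were taken unchanged as deposited by the authors, 1 column per library. The submitters' processing notes list bcl2fastq (1.8.4), STAR (2.7.3a) and kallisto (0.46.2), with GRCh38 and GRCm38 as builds. The counting tool, its annotation, its use of strand and its handling of multi-mapped reads were not given in the sources used here. GENCODE 29 named 34474 of 34505 human rows and gave positions.

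Separate edgeR 4.0.16 fits in R 4.3.3 (TMM, filterByExpr, robust glmQLFit, glmQLFTest) gave the changes within each line, adjusted by Benjamini-Hochberg over every gene kept, at 0.05. Levels, the difference of the K17 effects and the comparison of the lines come from the 12-library fit. Counting intervals are exact Clopper-Pearson at 95%; they and the floors (3 counts) leave out all but counting error. As alternatives, RLE or upper-quartile scaling, no filter, a filter of 1 CPM, DESeq2 1.42.0, limma-voom (limma 3.58.1), the replicate block, 1 fit of the 4 groups and leaving out each library were run. The scripts were tested on simulated data. No replicate pair was as close as sampling noise (lowest chi-square per degree of freedom 5.10), and every library was kept as 1 sample.

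The members, the gene lists and the tests were chosen with earlier results of these data known. The genes named are the members, KRT17, CTSL, the other signature genes and marker genes that were called or define their list, and the 2 genes most like each member called in L3.6. Some genes that the rule takes in are left out of the text. TUBB, EEF2 and CANX, and the motifs, lie outside this rule.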

Additional observations from a re-analysis of the deposited data

How the results depend on the processing

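For single members, 422 values under alternatives kept their direction and their side of the threshold, 9 passed it newly, 6 lost it and 25 changed sign, none of the last past the threshold. All 152 values of the comparison between the lines kept direction and call. In L3.6, 4 members were called, 1 in 1 fit of the 4 groups and 3 to 4 with a library left out; over all genes 1335 were called, 665 with the replicate block, 204 in 1 fit of the 4 groups and 574 to 2493 with a library left out. In PANC-1, 0 members were called, 3 by DESeq2, 2 in 1 fit of the 4 groups (FGFBP1 and ANXA8, edgeR adjusted p = 0.00552 and 0.0113) and 0 to 4 with a library left out; over all genes 105 were called, 595 by DESeq2, 0 with the replicate block, 363 in 1 fit of the 4 groups and 0 to 3442 with a library left out. For the difference of the K17 effects, 0 members were called throughout; over all genes 270 were called, 766 by DESeq2, 151 with the replicate block and 138 to 1819 with a library left out. Between the lines all 8 members and 9272 to 11494 genes were called with a library left out. The cause of these shifts was not tested.

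The values that changed sign were the following. In L3.6 they were SCEL at 0.16 and CTSV at 0.48 without knockout replicate 1. In PANC-1 they were TNS4 at 0.20, 0.06 and 0.05 without empty vector replicate 2, K17 replicate 1 or K17 replicate 3, and FAM83A at -0.041 and -0.056 without empty vector replicate 3 or K17 replicate 3. For the difference of the effects they were S100A2 at -0.03, -0.15 and -0.33 without knockout replicate 1, wild-type replicate 1 or empty vector replicate 2, and FAM83A at -0.13 without wild-type replicate 2. ANXA8 changed sign with RLE factors (-0.036), no filter (-0.079), the filter of 1 CPM (-0.015), DESeq2 (-0.035) and both copies added (-0.028), and in 9 of the 12 fits with a library left out. DHRS9 and SCEL, too low for a usable difference, are not among these values. With a library left out, these results ranged from -0.39 to 0.16 (SCEL), -0.58 to 0.48 (CTSV), -0.33 to 0.20 (TNS4 in PANC-1) and -0.056 to 0.22 (FAM83A in PANC-1), and for the difference from -0.33 to 0.26 (S100A2), -0.13 to 0.92 (FAM83A) and -0.20 to 0.11 (ANXA8).

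No clear pairing of libraries by replicate number was seen. Deviations from the group means of same-numbered libraries correlated at -0.121 to 0.0863, and those of different-numbered libraries at -0.0905 to 0.123. In PANC-1 the same-numbered values were 0.0533, 0.0863 and 0.0220. With 3 libraries in a group, and 1 that stood apart in PANC-1, such values cannot exclude a pairing. The numbers were treated as names in the main fits. With the replicate block S100A2 had an edgeR adjusted p of 0.0375 in L3.6, and 4 members were called there, 0 in PANC-1, 0 for the difference and 8 between the lines.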
